A study of Homo sapiens with 11 samples.

Results

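The AP-1 and immediate early transcription factors examined here were 10 genes, FOS, FOSB, FOSL1, FOSL2, JUN, JUNB, JUND, ATF3, EGR1 and MYC. They were chosen by name, as the subunits of the AP-1 complex and the factors usually measured with them, with earlier results of these data known. All 10 were present among the 28252 genes of the RNA-Seq data and among the 26237 promoters of the ChIP-Seq data, and all 10 passed edgeR's filter on low counts. RNA was measured in RT4 cells, a human non-invasive bladder cancer line, as untreated cells (UT), cells kept in 100 μM NiCl2 for 6 weeks (Ni-E) and cells given the same exposure followed by 2 weeks in nickel-free medium (Ni-W), with 2 libraries in each group. H3K4me3, a histone mark of active promoters, was measured by ChIP-Seq in BEAS-2B cells, an immortalized line of normal human bronchial epithelium, with 1 library each of UT, Ni-E (the same dose and duration) and Ni-W cells. The BEAS-2B Ni-W cells were 1 population grown from a single exposed cell, for which the sample labels give both 2 weeks and more than 6 months without nickel, and the study's methods the longer time. Expression in BEAS-2B cells was not analysed here.

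AP-1 is a dimer of basic leucine zipper proteins. FOS family proteins dimerize with JUN family proteins, while JUN proteins can also pair with each other or with ATF proteins, and the dimers bind a short palindrome in promoters and enhancers. FOS, FOSB, JUN, JUNB, EGR1 and MYC are classical immediate early genes, transcribed within minutes of a growth factor or stress signal through factors that are already present in the cell. In epithelial cells, AP-1 is known for its control of matrix proteases, cytokines and keratinocyte differentiation genes.

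Immediate early promoters carry part of their signal response close to the transcription start, so the 250 bases before the start are printed for 4 of the genes. Sequence further upstream was not searched, so an element missing here may lie outside this window. EGR1 and FOSB are shown because their RNA levels moved in different ways after nickel, FOS as the most abundant member in untreated cells, and JUND as the only member with a full cAMP response element here. The sequences are those of RefSeq on GRCh38.p14, read 5′ to 3′ on the strand of the gene. They lie at chr5:138465229-138465478, plus strand, for EGR1, at chr14:75278578-75278827, plus strand, for FOS, at chr19:45467746-45467995, plus strand, for FOSB, and at chr19:18281623-18281872, minus strand, for JUND. Capitals mark matches, on either strand, to the CArG box bound by serum response factor, the short cAMP response element (short CRE) TGACG, the full element TGACGTCA, which contains a short element on each strand, and the TATA box TATAAA.
EGR1: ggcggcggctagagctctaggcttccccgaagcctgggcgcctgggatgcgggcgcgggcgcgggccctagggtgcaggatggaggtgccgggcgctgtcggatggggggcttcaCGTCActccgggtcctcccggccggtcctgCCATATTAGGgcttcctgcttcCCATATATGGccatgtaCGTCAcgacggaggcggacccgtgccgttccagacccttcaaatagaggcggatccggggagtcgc
FOS: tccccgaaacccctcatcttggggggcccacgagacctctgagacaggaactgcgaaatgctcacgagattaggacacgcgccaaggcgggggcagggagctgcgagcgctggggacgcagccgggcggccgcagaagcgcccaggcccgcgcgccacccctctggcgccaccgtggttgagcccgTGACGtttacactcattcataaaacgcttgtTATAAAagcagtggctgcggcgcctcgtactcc
FOSB: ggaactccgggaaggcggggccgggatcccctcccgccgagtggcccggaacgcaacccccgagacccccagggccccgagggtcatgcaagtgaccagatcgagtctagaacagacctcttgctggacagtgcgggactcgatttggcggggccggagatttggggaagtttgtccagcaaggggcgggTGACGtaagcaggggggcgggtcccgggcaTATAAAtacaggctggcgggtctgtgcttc
JUND: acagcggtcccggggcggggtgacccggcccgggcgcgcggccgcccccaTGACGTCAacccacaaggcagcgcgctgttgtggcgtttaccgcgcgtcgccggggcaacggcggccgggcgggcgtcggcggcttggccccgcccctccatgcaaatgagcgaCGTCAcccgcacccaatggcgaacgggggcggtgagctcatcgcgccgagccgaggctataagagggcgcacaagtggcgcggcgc

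The EGR1 stretch held 2 CArG boxes, beginning 105 and 83 bases before the start, and 2 short CREs, at 135 and 66 bases. A CArG box was present in 1.16% of the 35116 RefSeq promoter entries searched over the same length. A short CRE stood 64 bases before the start of FOS and 60 bases before that of FOSB, and in both it was followed by a TATA box, at 33 and 30 bases. JUND carried the full element at 200 bases and a further short CRE at 86 bases, but no TATAAA. Of the 8 members searched, 7 held a short CRE (FOS, FOSB, FOSL2, JUN, JUNB, JUND and EGR1), against 21.2% of all entries. The letters TATAAA were present in 4 (FOS, FOSB, JUNB and ATF3), against 10.7%. The match began 33, 30 and 31 bases before the start in FOS, FOSB and JUNB. In ATF3 it began at 230 bases, in 1 of the 2 entries. ATF3 was searched in 2 entries, while these shares are per entry. The full CRE was found in 1.65% of all entries. Neither of the 2 ATF3 entries, which end at chr1:212565406 and chr1:212615017, held a short CRE. Annotated ATF3 starts are spread over 49844 bases, and the stretches before its other starts were not searched. The AP-1 site TGACTCA, found in 4.2% of all entries, and the E-box CACGTG, found in 6.34%, were in none of the members' stretches. GC boxes, GGGCGG, which 42.6% of entries carried and which overlap a short CRE in none of the 4 sequences printed, were left in lower case. FOSL1 and MYC were not searched. A match describes the letters of these windows and does not show that a factor binds there.

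The libraries differed in depth by replicate number. The estimated counts summed to between 17075833 and 18280556 in the 3 libraries of replicate 1 and to between 25721265 and 27736454 in the 3 of replicate 2. Same-numbered libraries of the 3 groups also deviated together, so each comparison is given by edgeR without a replicate term and with the replicate number as a block. Genes were called at a change of at least 1.5-fold and a Benjamini-Hochberg adjusted p under 0.05 over the 14502 genes tested. All 12 urothelial and epithelial markers examined were expressed in RT4 cells, with sums of 13463 to 17077 TPM (a level that corrects for gene length and depth). Markers of immune, stromal, muscle and endothelial cells summed to 16.8 to 17.6 TPM in UT, 51.2 to 54.9 in Ni-E and 50.6 to 61.4 in Ni-W libraries. Among the urothelial markers, UPK2, a uroplakin of the urothelial surface, was at 285 and 402 TPM in UT, 96.2 and 128 in Ni-E and 222 and 328 in Ni-W. With the block, UPK2 (log2 fold change −1.63 ± 0.12) and UPK3A (−0.62 ± 0.13) were called lower and KRT5 (1.18 ± 0.22), a basal keratin at or below 5.07 TPM, higher for Ni-E vs UT, and edgeR called none of the 12 without it. The difference in the summed markers of other cell types was mostly in ACTA2, a smooth muscle actin that epithelial lines can express. PTPRC, CD3E, DES, PECAM1 and PDGFRB lay between 0.0 and 0.07 TPM in every library. With the block, 4 of the 5 such markers tested were called for Ni-E vs UT, against 12.6% of all genes. ACTA2, COL3A1 (2.64 ± 0.24, at or below 4.55 TPM) and CD68 (0.67 ± 0.18) were higher. VWF, at or below 1.88 TPM, was lower (−0.83 ± 0.19). ACTA2, COL3A1 and CD68 were also called higher for Ni-W vs UT. The part of these markers in the results was not tested. Known hypoxia-inducible factor targets, induced by nickel in many cell types, were higher in Ni-E than in UT cells for 9 of 9 genes, with a median log2 fold change of 1.47, of which 3 (ADM, BNIP3 and EGLN3) were called without the block and 9 with it. In BEAS-2B cells, the promoters of 8 of the 12 urothelial and epithelial markers held at least 1 RPKM of H3K4me3, as did COL1A1, PDGFRB and ACTA2 among the 10 markers of other cell types.

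During nickel exposure, EGR1 and ATF3 rose about 5-fold to 6-fold, and MYC and FOSL1 were called higher only with the block. All 10 had a log2 fold change above 0 for Ni-E vs UT, apart from FOS under DESeq2 (−0.000148), with a median of 0.59 against −0.01 for all genes tested, and 9 of 10 moved the same way in both replicates. Without the block, 2 of 10 were called, both higher (EGR1 and ATF3), against 2.17% of all genes, and DESeq2 called the same 2 against 4.44%. In bulk RNA, a rise in every cell and a larger rise in part of the cells cannot be told apart. With the block, 4 of 10 were called, all higher (EGR1, ATF3, MYC and FOSL1), against 12.6% of all genes. The blocked edgeR adjusted p of these 4 genes ran from 5.76e-07 to 0.0006, and over every alternative run it ran from 2.17e-09 to 1.0.

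At 2 weeks after the removal of nickel, no member was called relative to UT cells without the block. That fit called 0.6% of all genes. At an unadjusted edgeR p under 0.05 there was 1 member of 10, close to the 9.12% of all genes, and DESeq2 called 1 (FOS) against 2.96%. With the block, 5 of 10 were called against 8.57% of all genes. FOS, FOSB and JUND were lower, and FOSL1 and EGR1 were higher. Their blocked edgeR adjusted p ran from 0.000616 to 0.0319, and over every alternative from 0.000616 to 1.0.

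Relative to Ni-E cells, all 10 members had log2 fold changes below 0 in Ni-W cells, in both replicates, with a median log2 fold change of −1.23 against 0.02 for all genes. In TPM, 8 of the 10 did not overlap between the groups, each lower in Ni-W, against 10.5% of all genes tested in that direction and 25.1% in either. Without the block, no member and no other gene was called (0.0% of those tested), although 5 members had an unadjusted edgeR p under 0.05, against 5.57% of all genes, and DESeq2 called 4 (FOS, FOSB, EGR1 and ATF3), against 0.955%. With the block, 7 of 10 were called, all lower, against 4.52% of all genes. Their blocked edgeR adjusted p ran from 1.92e-05 to 0.00753, and over every alternative from 5.18e-11 to 1.0. The 3 comparisons share libraries in pairs, so they are not independent of each other.

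**Figure D1:**
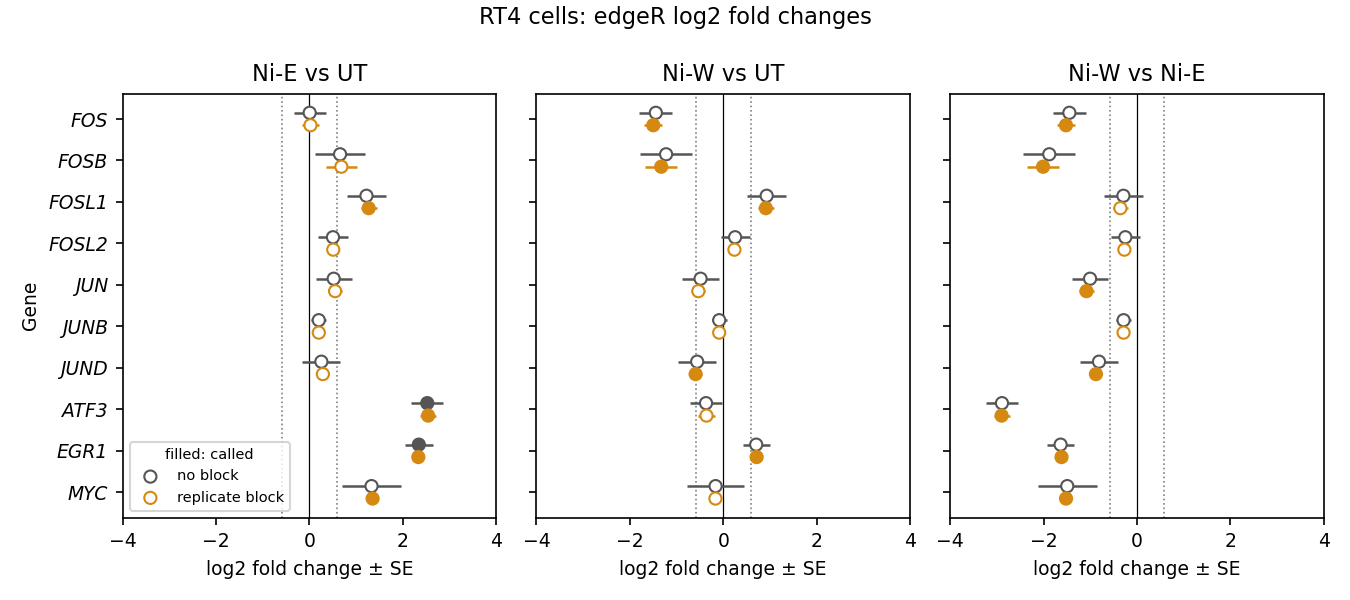
Log2 fold change (x axis, edgeR, with SE) of each of the 10 genes (y axis) in RT4 cells, with 1 panel for each comparison. Grey symbols are fits without a replicate term and orange symbols fits with the replicate block, filled symbols were called, and dotted lines mark 1.5-fold. All 10 genes lie at or above 0 for Ni-E vs UT (FOS was just below it under DESeq2) and below 0 for Ni-W vs Ni-E.

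In untreated RT4 cells the members spanned a wide range of levels. FOS had the highest mean, 552 ± 1.62 TPM (SD, n = 2), above 99.1% of the genes listed, and was followed by JUNB at 470 ± 66.4 TPM (SD, n = 2). JUND, JUN and FOSL2 came next, with means of 161, 124 and 120.2 TPM, and each overlapped its neighbour in this order. MYC, FOSB and EGR1 had means of 44.9, 37.1 and 29.2 TPM and likewise overlapped. FOSL1, at 17.8 TPM, and ATF3, at 6.33 TPM, were the lowest. In Ni-E cells ATF3 remained the lowest, now at a mean of 37.4 TPM, while EGR1 reached 148 TPM and overlapped FOSL2. In Ni-W cells JUNB stood first, and FOS, at 203 TPM, overlapped FOSL2 at 151 TPM.

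**Figure D2:**
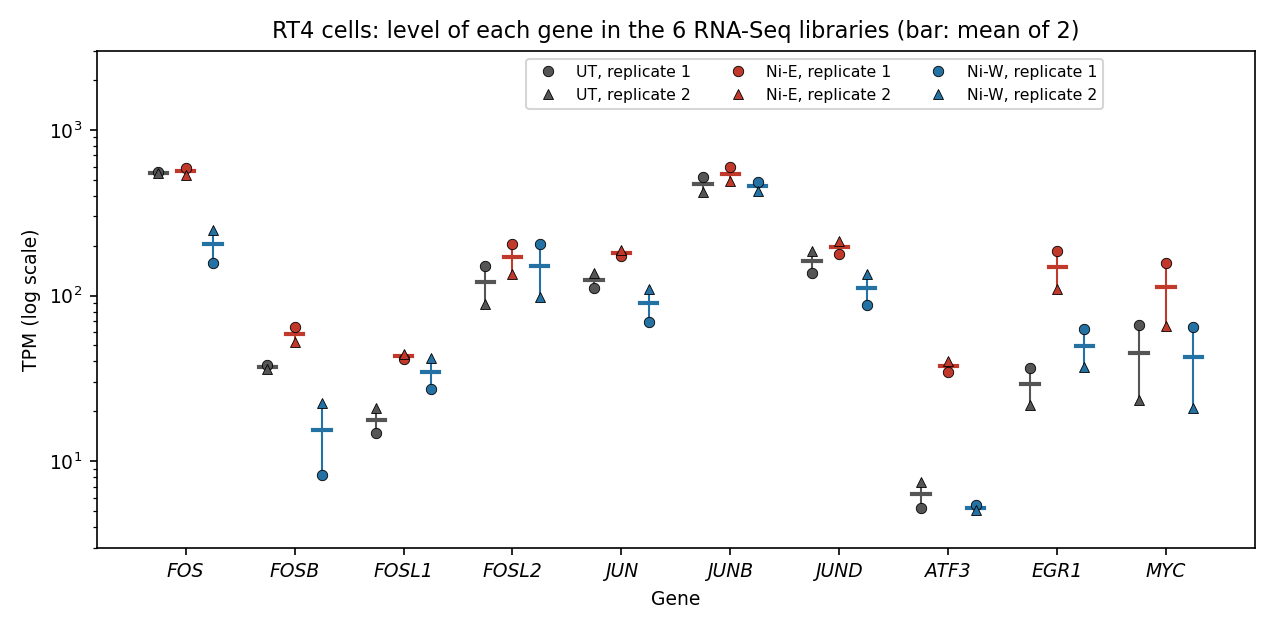
TPM (y axis, log scale) of each of the 10 genes (x axis) in the 6 RT4 libraries. Circles are replicate 1 and triangles replicate 2, thin lines join the 2 libraries of a group and thick bars mark their mean. ATF3 and EGR1 stand highest in Ni-E cells, and FOS and FOSB lowest in Ni-W cells.

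FOS and FOSB, the FOS proteins with a strong transactivation domain, were not called during exposure and, with the block, fell after it. FOS, on chromosome 14 from 75278826 to 75282230 (GENCODE v44, GRCh38, plus strand), was at 553 and 550.4 TPM in UT replicates 1 and 2, at 587 and 535 TPM in Ni-E, and at 157 and 249 TPM in Ni-W. Both Ni-W libraries were below all 4 others, while the UT and Ni-E libraries overlapped. For Ni-E vs UT, the log2 fold change was 0.00 ± 0.35 (SE), with replicate 1 at 0.13 and replicate 2 at −0.11. Relative to UT cells, the Ni-W value was −1.44 ± 0.35 with an edgeR adjusted p of 0.202, and −1.498 ± 0.19 with the block, where FOS was called. Both replicates were lower, by log2 values of −1.93 in replicate 1 and −1.14 in replicate 2. Leaving out Ni-W replicate 2 moved the value without the block to −2.06 and leaving out Ni-W replicate 1 to −1.003, neither of them called. Its blocked log2 fold change for Ni-W vs Ni-E was −1.52 ± 0.19, also called, against −1.45 ± 0.35 without the block, which became −2.07 when Ni-W replicate 2 was left out.

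FOSB, on chromosome 19 from 45467995 to 45475179 (plus strand), was at 38.1 and 36.05 TPM in UT, 64.3 and 52.4 TPM in Ni-E, and 8.30 and 22.5 TPM in Ni-W. Neither Ni-W library reached the UT or Ni-E levels, and the 2 Ni-W libraries lay further apart than those of any other group. The log2 fold change for Ni-E vs UT was 0.65 ± 0.54 and was not called in either fit, although both replicates were above 0. After washout it was −1.22 ± 0.55 relative to UT, and −1.33 ± 0.34 with the block, which called it. Replicate 1 gave −2.32 and replicate 2 gave −0.67. Without the block, the value rested on which Ni-W library was kept. It was −2.41, and called, when replicate 2 was left out (edgeR adjusted p = 0.0472), and −0.58, and not called, when replicate 1 was left out (edgeR adjusted p = 0.548), within a range of 0.0319 to 1.0 over all alternatives. Against Ni-E cells the blocked Ni-W value was −2.01 ± 0.35, a 4.03-fold lower level, and was called. The value without the block, −1.88 ± 0.56, became −3.07 without Ni-W replicate 2 and −1.23 without Ni-W replicate 1. The end of FOSB overlaps ERCC1 on the other strand, and the counting is not stated to use strand, so reads from the overlap cannot be assigned to one of the 2 genes.

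The FOS-related antigens, FOSL1 and FOSL2, which lack that transactivation domain, were not called between Ni-E and Ni-W cells in either fit, and with the block FOSL1 was called above UT cells in both nickel groups. FOSL1 (FRA-1), on chromosome 11 from 65892049 to 65900573 (minus strand), was at 14.7 and 20.9 TPM in UT, 41.3 and 44.4 TPM in Ni-E, and 27.3 and 41.8 TPM in Ni-W. Every nickel-treated library, Ni-W included, was above both UT libraries. The log2 fold change for Ni-E vs UT was 1.22 ± 0.42 with an edgeR adjusted p of 0.303, and 1.27 ± 0.17 with the block, which called it. After washout it was 0.93 ± 0.42 relative to UT, and 0.91 ± 0.17 with the block, which called it as well, and replicates 1 and 2 gave 0.80 and 1.00. Without Ni-W replicate 2 the unblocked value was 0.34. Between Ni-W and Ni-E cells it was −0.29 ± 0.41, not called in either fit. FOSL2 (FRA-2), on chromosome 2 from 28392448 to 28417317 (plus strand), was at 152 and 88.8 TPM in UT, 205 and 135 TPM in Ni-E, and 205 and 98.35 TPM in Ni-W. Replicate 1 was the higher library in every group, and the groups overlapped. Its log2 fold changes were 0.50 ± 0.31 during exposure, 0.25 ± 0.31 after washout relative to UT and −0.25 ± 0.31 after washout relative to Ni-E, none of them called in either fit. With the block, the value during exposure was 0.51 ± 0.10 with an edgeR adjusted p of 0.0044. That is a 1.42-fold rise, under the 1.5-fold threshold, and replicates 1 and 2 gave 0.48 and 0.54. FOSL2-AS1 lies on the opposite strand of FOSL2.

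Of the JUN family, the partners of the FOS proteins, JUN and JUND fell from Ni-E to Ni-W cells with the block, while JUNB was called in no comparison. JUN, on chromosome 1 from 58776845 to 58784048 (minus strand), was at 111 and 137 TPM in UT, 173 and 189 TPM in Ni-E, and 69.2 and 110.2 TPM in Ni-W. Both Ni-E libraries were above all others. The log2 fold change was 0.52 ± 0.39 for Ni-E vs UT and −0.48 ± 0.39 for Ni-W vs UT, under 1.5-fold in each case. From Ni-E to Ni-W cells it was −1.003 ± 0.39, and −1.08 ± 0.15 with the block, which called it, a 2.12-fold lower level. Without Ni-W replicate 2 the unblocked values were −1.11 relative to UT and −1.63 relative to Ni-E.

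JUNB, a JUN protein with weaker activity at many AP-1 sites, lies on chromosome 19 from 12791486 to 12793315 (plus strand) and overlaps HOOK2 on the other strand. It was at 517 and 423 TPM in UT, 595 and 492 TPM in Ni-E, and 486 and 427 TPM in Ni-W, so that UT overlapped both other groups and the Ni-W libraries lay just below those of Ni-E. Its log2 fold changes were 0.20 ± 0.16, −0.09 ± 0.16 and −0.29 ± 0.16 during exposure, after washout relative to UT and after washout relative to Ni-E, none of them called in either fit. JUND, the JUN protein usually present in resting cells, lies on the same chromosome from 18279694 to 18281622 (minus strand). It was at 137 and 185 TPM in UT, 179 and 213 TPM in Ni-E, and 87.6 and 135 TPM in Ni-W. Both Ni-W libraries were below all 4 others, by a small margin in replicate 2. The log2 fold change after washout was −0.56 ± 0.41 relative to UT, and −0.59 ± 0.13 with the block, which called it just past 1.5-fold. Relative to Ni-E it was −0.81 ± 0.41, and −0.88 ± 0.13 with the block, also called. Leaving out Ni-W replicate 2 moved the unblocked values to −1.15 and −1.41.

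Summed over the family, FOS family RNA was 757 and 696 TPM in UT libraries, 898 and 766 TPM in Ni-E libraries, and 397 and 412 TPM in Ni-W libraries. JUN family RNA was 765 and 745 TPM, 947 and 894 TPM, and 643 and 672 TPM in the same order. The ratio of the FOS to the JUN family was 0.99 and 0.934 in UT, 0.948 and 0.857 in Ni-E, and 0.618 and 0.613 in Ni-W. With 2 libraries a group, an exact permutation test of this ratio cannot reach a p under 0.05, and none was run. FOSL1 and FOSL2 together made up 22.0% and 15.8% of FOS family RNA in UT, 27.4% and 23.4% in Ni-E, and 58.3% and 34.03% in Ni-W. The ratio and the share in both Ni-W libraries lay outside the range of the 4 other libraries.

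**Figure D3:**
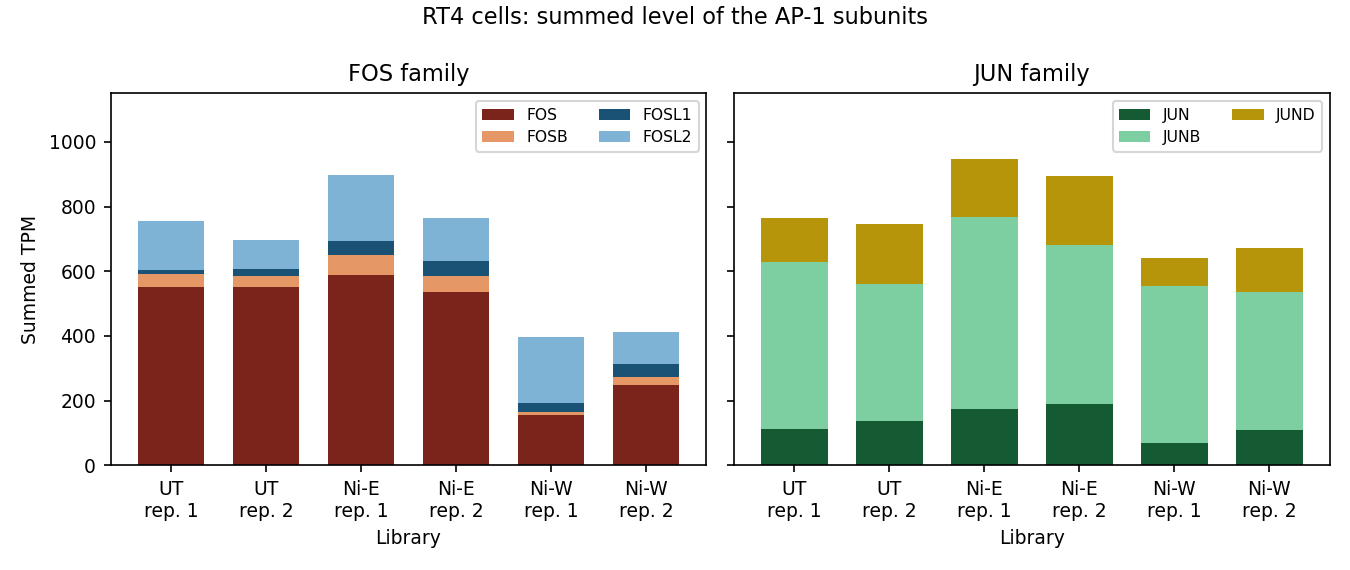
Summed TPM (y axis) of the FOS family (left) and the JUN family (right) in each of the 6 RT4 libraries (x axis), stacked by gene. The FOS family is at 397 and 412 TPM in the Ni-W libraries, where the FOS, FOSB, JUN and JUND segments are shorter than in the 4 other libraries.

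ATF3, a stress-induced repressor of the ATF/CREB family that dimerizes with JUN proteins, rose during exposure by about as much as EGR1 and was near its untreated level afterwards. It lies on chromosome 1 from 212565334 to 212620777 (plus strand), with annotated transcript starts spread over 49844 bases. ATF3 was at 5.20 and 7.46 TPM in UT, 34.3 and 40.4 TPM in Ni-E, and 5.41 and 5.05 TPM in Ni-W, with 81 to 1210 estimated counts behind each value. Both Ni-E libraries stood apart from all others, and the Ni-W libraries lay at the UT level or just below it. During exposure the log2 fold change relative to UT was 2.52 ± 0.34, a 5.74-fold rise, with an edgeR adjusted p of 0.0313. The rise was called in every alternative with 2 libraries in both groups. It was not called when any 1 UT or Ni-E library was left out, where the edgeR adjusted p ran from 0.0782 to 0.252 and the log2 fold change from 2.18 to 2.98, and its order with EGR1 turned in part of these fits. After washout it was −0.37 ± 0.33 relative to UT, not called in either fit. Relative to Ni-E it was −2.89 ± 0.35 with an edgeR adjusted p of 0.156, and −2.90 ± 0.17 with the block, which called it, a 7.45-fold lower level.

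EGR1, a zinc finger factor whose promoter is a standard reporter of serum response factor activity, rose during exposure and, with the block, was called above UT cells after it as well. It lies on chromosome 5 from 138465479 to 138469303 (plus strand), and its 2 CArG boxes are printed above. EGR1 was at 36.6 and 21.8 TPM in UT, 186 and 109.9 TPM in Ni-E, and 62.5 and 36.9 TPM in Ni-W. Replicate 1 was the higher library in each group, and within each replicate the order was UT, Ni-W, Ni-E. For Ni-E vs UT the log2 fold change was 2.34 ± 0.30, a 5.07-fold rise, with an edgeR adjusted p of 0.028, and it was 2.39 in replicate 1 and 2.27 in replicate 2. This call was lost with limma on log2 TPM, where the adjusted p ran from 0.096 to 0.122, and when any 1 UT or Ni-E library was left out, where the edgeR adjusted p ran from 0.1002 to 0.208. After washout it was 0.71 ± 0.29 relative to UT with an edgeR adjusted p of 0.559, and 0.72 ± 0.10 with the block, which called it, a 1.64-fold higher level. Relative to Ni-E it was −1.63 ± 0.29, and −1.62 ± 0.10 with the block, which called it, a 3.06-fold lower level.

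MYC, the growth-promoting partner of MAX and an immediate early gene of mitogen signalling, differed strongly between the 2 replicates of every group, and it was called only with the block. It was at 66.4 and 23.45 TPM in UT, 158 and 65.55 TPM in Ni-E, and 64.3 and 20.9 TPM in Ni-W. In each group replicate 1 was far above replicate 2, and Ni-E replicate 2 was close to UT and Ni-W replicate 1. During exposure the log2 fold change relative to UT was 1.33 ± 0.63 with an edgeR adjusted p of 0.522, and 1.35 ± 0.10 with the block, which called it, a 2.55-fold rise. The within-replicate values were alike, at 1.29 and 1.41. Leaving out 1 library moved the unblocked value from 0.66 without Ni-E replicate 1 to 2.07 without UT replicate 1. After washout it was −0.16 ± 0.62 relative to UT, not called in either fit. Relative to Ni-E it was −1.49 ± 0.63, from −2.23 without Ni-W replicate 1 to −0.83 without Ni-E replicate 1, and −1.52 ± 0.10 with the block, which called it. The antisense gene CASC11 overlaps MYC in GENCODE v44.

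Genes with the pattern most like that of the 2 members called without the block were ranked by Pearson correlation of log2 CPM (counts scaled to library size) over the 6 libraries, among 11140 genes with a mean of at least 5 CPM. For EGR1, the 3 highest were NHSL1 (r = 0.996), CA10 (r = 0.994) and ARHGAP10 (r = 0.993), and 64 genes had an r of at least 0.95. For ATF3, they were RNF130 (r = 0.993), ADAM8 (r = 0.99) and HBEGF (r = 0.989), and 23 genes had an r of at least 0.95. HBEGF, a secreted ligand of the EGF receptor, was at 5.55 and 4.81 TPM in UT, 9.07 and 9.20 TPM in Ni-E, and 5.82 and 4.59 TPM in Ni-W. The 6 libraries share their groups and their replicate depths, so these values are a description.

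Other immediate early genes were called higher during exposure in 2 of 27 cases without the block and 11 of 27 with it. The list held 32 genes, of which 27 were tested. For Ni-E vs UT, 24 of 27 were above 0 with a median log2 fold change of 0.51. The 11 are 40.7% of those tested, against 12.6% of all genes, and the 2 are 7.41%, against 2.17%. SGK1, a serum- and glucocorticoid-induced kinase, was at 1.25 and 0.68 TPM in UT, 12.0 and 8.85 TPM in Ni-E, and 13.8 and 8.42 TPM in Ni-W. Its log2 fold change was 3.46 ± 0.32 for Ni-E vs UT (edgeR adjusted p = 0.0124) and 3.47 ± 0.32 after washout relative to UT (edgeR adjusted p = 0.02), and the Ni-E and Ni-W libraries overlapped. PLK2, a polo-like kinase, was at 13.9 and 11.4 TPM in UT and 51.8 and 48.7 TPM in Ni-E, a log2 fold change of 1.98 ± 0.22 (edgeR adjusted p = 0.0204). It was at 40.4 and 22.4 TPM in Ni-W. KLF4, a factor of epithelial differentiation, and NR4A2, an orphan nuclear receptor, were called with the block, with log2 fold changes of 1.06 ± 0.14 and 1.30 ± 0.24.

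For Ni-W vs UT, 1 of the 27 was called without the block (SGK1), while with it 6 were higher and 6 lower (44.4%, against 8.57% of all genes). For Ni-W vs Ni-E, none was called by edgeR without the block, DESeq2 called 3, all lower (NR4A1, NR4A2 and IER3), and the block called 10, all lower (37.0%, against 4.52%). NR4A1, an orphan nuclear receptor induced in the same way as FOS, was at 13.0 and 15.4 TPM in UT, 30.8 and 27.7 TPM in Ni-E, and 4.76 and 5.34 TPM in Ni-W. Both Ni-W libraries were below both UT libraries, and the blocked log2 fold change was −1.51 ± 0.17 relative to UT and −2.54 ± 0.17 relative to Ni-E. IER3, an immediate early inhibitor of cell death, was at 17.1 TPM in both Ni-E libraries and at 6.00 and 5.77 TPM in Ni-W, a blocked log2 fold change of −1.57 ± 0.19. NR4A2 was called lower in the same comparison, at −2.33 ± 0.27. EGR4 was also called lower in both washout comparisons but was at or below 0.6 TPM in every library.

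At the level of RNA, the genes that carry the signal to these factors were mostly not called. The activity of their proteins was not measured. Of 28 MAP kinases, RAF and RSK kinases and ternary complex factors tested, none was called in any comparison by edgeR without the block or by DESeq2. With the block, MAP3K1 was higher and RPS6KA5 lower, both during exposure (log2 fold changes of 1.04 ± 0.22 and −0.90 ± 0.17) and after washout relative to UT (0.89 ± 0.22 and −0.99 ± 0.17). Among 13 tested bZIP relatives of the members, JDP2, a JUN-dimerizing repressor, was called without the block for Ni-E vs UT. It was at 3.19 and 2.53 TPM in UT, 8.43 and 6.63 TPM in Ni-E, and 9.19 and 8.09 TPM in Ni-W, a log2 fold change of 1.40 ± 0.20 (edgeR adjusted p = 0.0366). With the block it was also called for Ni-W vs UT, at 1.56 ± 0.16. MAF, at −0.93 ± 0.17, and BATF2, at 2.35 ± 0.40, were called with the block after washout relative to UT, and BATF2 was at or below 1.82 TPM in every library.

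Genes known as AP-1 targets moved in both directions during exposure. Of 23 listed, 17 were tested, with a median log2 fold change of 0.47 for Ni-E vs UT against −0.01 for all genes. During exposure, 6 were called higher and 1 lower (IVL) without the block, and 8 higher and 3 lower (IVL, MMP7 and SPRR3) with it. These are 41.2% and 64.7% of the 17, against 2.17% and 12.6% of all genes. IVL encodes involucrin, a protein of the cornified envelope, and SPRR1A and SPRR3 encode small proline-rich proteins of the same structure. CXCL8, a neutrophil chemokine, was at 25.6 and 18.9 TPM in UT, 136 and 116 TPM in Ni-E, and 93.6 and 48.4 TPM in Ni-W. Its log2 fold change was 2.55 ± 0.22 for Ni-E vs UT (edgeR adjusted p = 0.0113) and 1.70 ± 0.21 after washout relative to UT (edgeR adjusted p = 0.0466), both called. The matrix metalloproteinase MMP10 was at 7.27 and 6.63 TPM in UT, 36.1 and 31.6 TPM in Ni-E, and 8.11 and 7.29 TPM in Ni-W. Like ATF3, it was back near the UT level after washout, with log2 fold changes of 2.27 ± 0.21 for Ni-E vs UT (edgeR adjusted p = 0.0124) and −2.17 ± 0.15 from Ni-E to Ni-W with the block. MMP1, interstitial collagenase, was at 22.8 and 21.9 TPM in UT, 93.8 and 91.7 TPM in Ni-E, and 38.2 and 33.5 TPM in Ni-W. MMP1 was also called in these 2 comparisons, and its Ni-W libraries stayed above both UT libraries. MMP13, another collagenase, was called for Ni-E vs UT at 1.72 ± 0.25 (edgeR adjusted p = 0.0369). MMP7, by contrast, was at 3.68 and 6.29 TPM in UT, 0.87 and 0.83 TPM in Ni-E, and 6.01 and 5.01 TPM in Ni-W, a blocked log2 fold change of −2.62 ± 0.38 during exposure. For Ni-W vs UT, edgeR called 1 of 17 without the block (CXCL8), and the block 6, all higher, against 8.57% of all genes, among them LIF, an IL-6 family cytokine, at 0.83 ± 0.12. For Ni-W vs Ni-E, edgeR called none of the 17 without the block (0.0% of all genes), DESeq2 called 1 higher and 2 lower, and the block called 4 higher (MMP7, SPRR3, IVL and SPRR1A) and 7 lower, against 4.52% of all genes, with SPRR3 at 1.15 ± 0.20. IVL and SPRR1A fall outside the rule for named genes and are named after their values were seen.

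The lists built around MYC and ATF3 were tested in the same fits. None of the 20 MYC targets, mostly ribosome biogenesis and nucleotide synthesis genes, was called for Ni-E vs UT, by edgeR in either fit or by DESeq2, and their median log2 fold change was 0.01. With the block, ODC1 was lower after washout relative to UT (−0.68 ± 0.10) and TERT relative to Ni-E (−0.79 ± 0.20). In the MYC, MAX and MXD network of 12 genes, MXI1, a MAX partner that opposes MYC, was the only gene called for Ni-E vs UT, at 1.97 ± 0.21 (edgeR adjusted p = 0.0189) in the fit without the block, and with the block it was called in all 3 comparisons. Of 10 genes of the ATF4 pathway that ATF3 belongs to, 8 were above 0 during exposure. Their median log2 fold change was 0.42, against −0.01 for all genes. Without the block, 2 of the 10 were called for Ni-E vs UT, against 2.17% of all genes. They were VLDLR, a lipoprotein receptor, at 2.35 ± 0.26 (edgeR adjusted p = 0.02) and DDIT4, an inhibitor of mTORC1, at 1.12 ± 0.17 (edgeR adjusted p = 0.0379). Whether they rose through ATF4, ATF3 or another regulator was not tested. With the block, 4 of the 10 were called, against 12.6% of all genes. The block added CHAC1, a glutathione-degrading enzyme, at 1.79 ± 0.20, and ASNS, asparagine synthetase, at 0.75 ± 0.12. CHAC1 was at 7.81 and 8.0 TPM in UT, 27.3 and 27.5 TPM in Ni-E, and 21.8 and 31.5 TPM in Ni-W. It was called after washout as well, with a blocked log2 fold change of 1.72 ± 0.20 for Ni-W vs UT.

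In BEAS-2B cells, H3K4me3 at the 10 promoters ranged from among the highest levels, at FOSL2 and JUN, to a level near the median promoter, at ATF3. The level is the RPKM (reads scaled to window length and depth) over the 2 kb on each side of the transcription start. RPKM values were whole multiples of 1 read, which gave depths of 28385676 reads for UT, 37493979 for Ni-E and 29933539 for Ni-W cells. The data held 1 library per condition, although the study's methods describe ChIP on 2 biological replicates. No test was therefore made, and the 95% Wilson intervals cover counting error only. Input libraries of UT and Ni-W cells were not used here. In UT cells FOSL2 held 17.1 RPKM (16.4 to 17.9), above 99.7% of promoters, and JUN held 15.7 RPKM (15.0 to 16.5), above 99.4%. MYC, at 14.0 RPKM (13.4 to 14.8), JUNB, at 12.9 RPKM (12.2 to 13.6), JUND, at 11.6 RPKM (10.998 to 12.3), and EGR1, at 11.4 RPKM (10.8 to 12.0), were each above 95% of promoters. FOSB held 8.65 RPKM (8.12 to 9.21), above 86.6% of promoters, and FOSL1 7.90 RPKM (7.40 to 8.43), above 83.3%. FOS held 5.03 RPKM (4.63 to 5.46), above 66.2% of all promoters but only 37.2% of the 14127 with at least 1 RPKM in 1 library. ATF3 held 1.73 RPKM (1.501 to 1.99), above 50.6% of promoters. Which of the ATF3 starts the authors' window used is not given in the sources used here. The starts of LINC01135, MIR3188 and CASC11 lie within 4 kb of those of JUN, JUND and MYC, so the windows overlap and their marks cannot be fully separated.

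**Figure D4:**
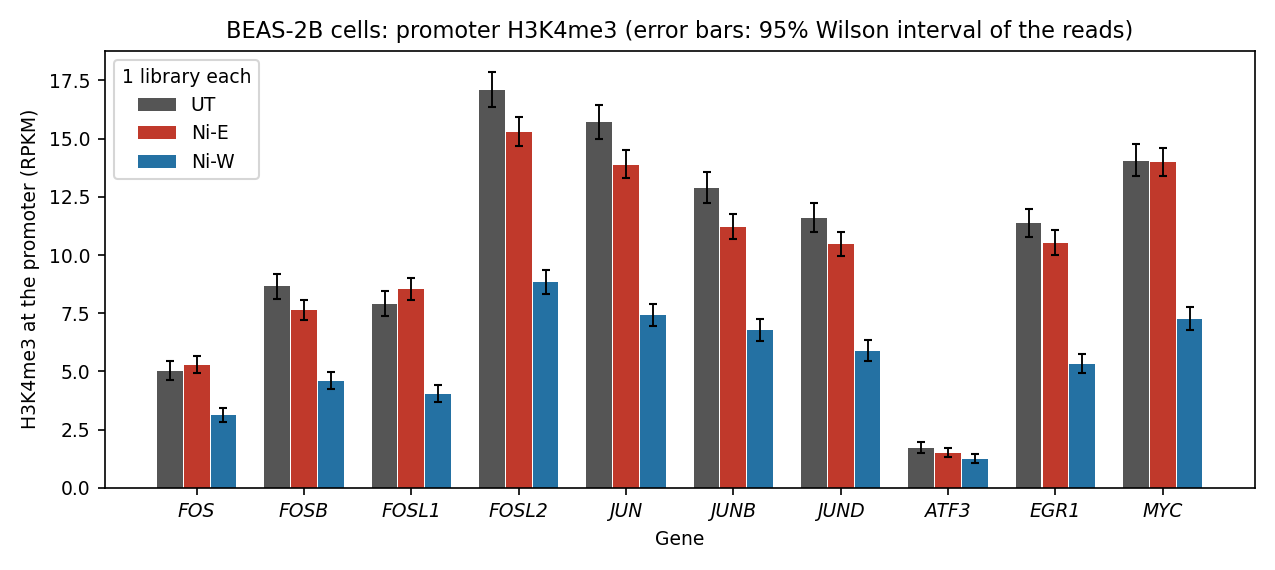
H3K4me3 at the promoter (y axis, RPKM over 4 kb) of the 10 genes (x axis) in the UT, Ni-E and Ni-W libraries of BEAS-2B cells. Bars are single libraries and error bars the 95% Wilson interval of the read count. Ni-W bars are lowest for every gene, and the library's median promoter was also lower, at 1.12 RPKM against 1.57 in UT.

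During exposure the mark at these promoters hardly moved. Levels were divided by the library's median promoter, which was 1.57 RPKM in UT, 1.39 in Ni-E and 1.12 in Ni-W cells. The scaled log2 ratio for Ni-E vs UT ran from −0.02 (JUNB) to 0.29 (FOSL1), with a median of 0.02, against 0.11 over the 14127 promoters with at least 1 RPKM. None of the 10 was past 1.5-fold, and 1.61% of all promoters were. FOSL1 held 8.54 RPKM (8.09 to 9.02) in Ni-E cells, with a ratio above 91.5% of promoters, and FOS held 5.28 RPKM (4.93 to 5.66), with a ratio of 0.25. EGR1, at 10.5 RPKM (10.0 to 11.1) and a ratio of 0.07, and ATF3, at 1.51 RPKM (1.32 to 1.72) and a ratio of −0.02, lay within the bulk of promoters.

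In Ni-W cells, 9 of the 10 promoters were lower relative to the library median, as were most promoters. For Ni-W vs UT the members had a median log2 ratio of −0.47. The median was −0.32 over the 14127 promoters with at least 1 RPKM in 1 library. It was −0.35 over the 10031 of these with at least 4 RPKM in Ni-E cells. EGR1, at 5.33 RPKM (4.93 to 5.76) and a ratio of −0.61, and JUN, at 7.41 RPKM (6.94 to 7.91) and a ratio of −0.60, were past 1.5-fold. That is 2 of 10, against 22.8% of all promoters. The remaining ratios were −0.49 for JUND, −0.48 for FOSL1, −0.47 for FOSL2 and MYC, −0.44 for JUNB, −0.43 for FOSB and −0.20 for FOS. ATF3, at 1.25 RPKM (1.07 to 1.47), had a ratio of 0.02.

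For Ni-W vs Ni-E, FOSL1 (−0.77), EGR1 (−0.67), MYC (−0.64) and JUN (−0.60) were past 1.5-fold, all lower, which is 4 of 10 against 34.4% of all promoters. The share of members past the threshold was close to the background in both washout comparisons. The scaling decides these counts. For Ni-W vs UT, 620 promoters were higher and 2596 lower past 1.5-fold with median scaling, 261 and 10035 without it, and 1135 and 761 after quantile normalization, where no member passed 1.5-fold. For Ni-W vs Ni-E the same counts were 575 and 4287, 316 and 9009, and 1130 and 858.

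**Figure D5:**
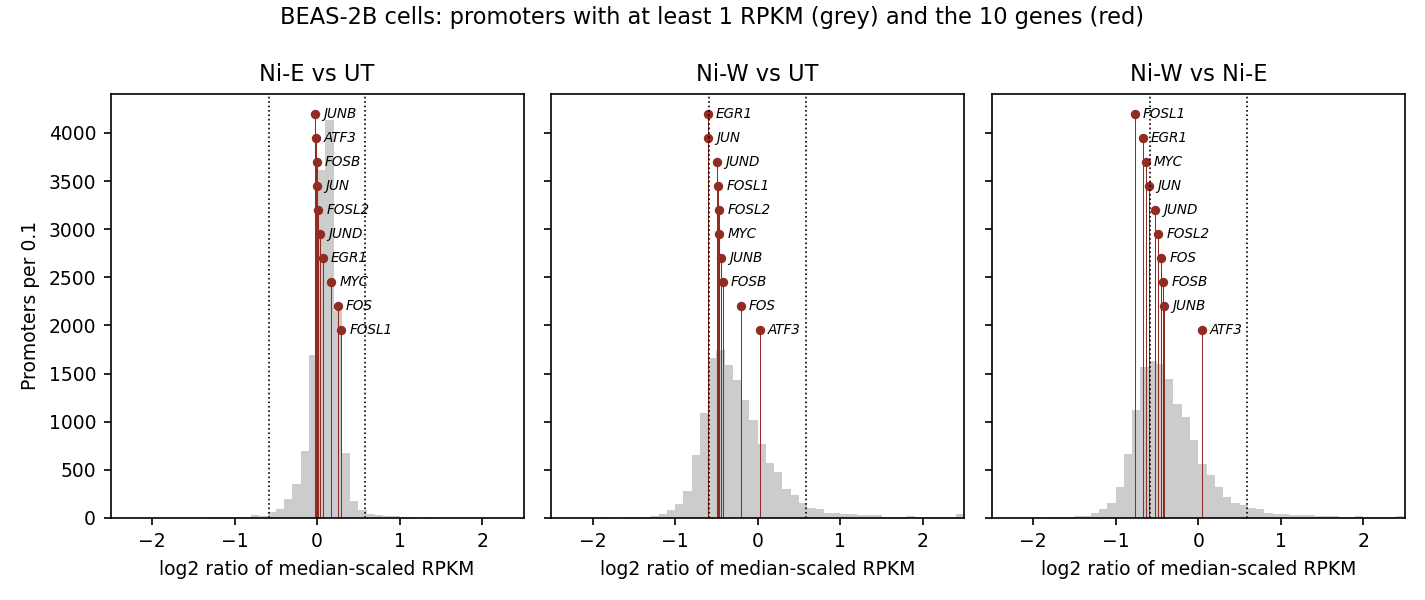
Number of promoters per 0.1 (y axis) by log2 ratio of median-scaled H3K4me3 (x axis) in BEAS-2B cells, for promoters with at least 1 RPKM in 1 library. Red lines mark the 10 genes, at heights chosen only to separate the names, dotted lines mark 1.5-fold, and ratios beyond the axis are counted in the outermost bars. The members lie within the bulk of promoters in all 3 comparisons.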

How the data were processed

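RNA-Seq was available for 6 RT4 libraries, and ChIP-Seq of H3K4me3 for 3 BEAS-2B libraries. The authors deposited RSEM gene tables with estimated counts, TPM and FPKM (FPKM not used). The study's methods describe RNA-Seq reads aligned to hg19 with STAR and a RefSeq annotation, and quantified as RPKM. The submitters' processing notes name GRCh38, and the RSEM step and its build are not given in the sources used here. The deposited ChIP-Seq values are RPKM over 2 kb on each side of each start, which the authors computed from 50-base single-end reads aligned to hg38 with BWA after collapsing redundant reads. The submitters' processing notes also name SAMtools, bedtools and DESeq2.

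Estimated counts, of which at least 97.9% were whole, were rounded and scaled by TMM factors. They were filtered with filterByExpr and tested with edgeR 4.0.16 (quasi-likelihood) in 1 model of the 3 groups. Adjusted p-values are Benjamini-Hochberg over all genes tested. Fold changes are on the log2 scale. Fits were tested on simulated data. Replicate numbers come from the sample titles, in which a suffix marks the second library. The difference of replicate 2 and replicate 1 correlated between groups at 0.592 (UT and Ni-E), 0.701 (UT and Ni-W) and 0.642 (Ni-E and Ni-W) over 14502 genes, so the numbers were taken as pairs. The study's methods give 2 biological replicates for RNA-Seq, without saying whether these were separate nickel exposures, so p-values measure only the spread between these libraries. Alternatives were DESeq2 1.42.0, RLE factors, other filters, limma 3.58.1 on log2(TPM + 1) and log2(TPM + 0.1), only the 2 groups compared, adjusted p alone, and each library left out in turn.

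RPKM was divided by the library median of all promoters and compared, without a test, over promoters with at least 1 RPKM in 1 library. Reads were recovered from the size of 1 read, with all values whole within 0.001 RPKM. Alternatives were no scaling, quantile normalization, log2 of (RPKM + 1) and no minimum. Promoter sequences came from RefSeq, matched by symbol, and were used for 8 of 10 members.

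The genes named were all 10 members, at most 4 called genes with the largest change per list and comparison, and the 3 genes most like each member called. Some genes that this rule would name are not reported here. The members and lists were chosen with earlier results of these data known.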

Additional observations from a re-analysis of the deposited data

How the results depend on the processing

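Without a replicate block, 2 members were called during exposure, 0 after washout relative to UT and 0 after washout relative to Ni-E, the order used throughout. With the replicate block these counts were 4, 5 and 7, and over all genes 1833, 1243 and 655 in place of 314, 87 and 0. The block changed no other member's call. DESeq2 called 2, 1 and 4 members, and 730, 442 and 139 genes. Without the filter, 1 member was called between Ni-W and Ni-E, and 449, 193 and 14 genes. The 3 limma fits on log2 TPM each called 1 member for Ni-E vs UT, with 120 to 173, 68 to 79 and 0 to 11 genes. At least 10 counts in every library left 209 and 54 genes for the first 2 comparisons, and the fit of only the 2 groups compared left 0 genes for Ni-W vs UT. Leaving out 1 library gave 0 to 2, 0 to 1 and 0 members, and 0 to 320, 0 to 38 and 0 genes, with the lone library assumed to vary like the other groups.

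Values of uncalled members that changed sign were small apart from MYC. For Ni-E vs UT, FOS was at −0.000148 with DESeq2. Leaving out 1 library gave log2 fold changes of −0.119 to 0.142 for FOS and −0.0525 to 0.649 for JUND in that comparison. For Ni-W vs UT the same range was −0.113 to 0.55 for FOSL2, −0.19 to 0.0172 for JUNB, −0.707 to 0.0925 for ATF3 and −0.916 to 0.579 for MYC, whose value turned above 0 without UT replicate 1 (0.579) or Ni-W replicate 2 (0.332). Between Ni-W and Ni-E it was −0.878 to 0.136 for FOSL1 and −0.606 to 0.0471 for FOSL2. Of 480 values of single members, 436 kept direction and side of the threshold, 21 passed it newly, 11 lost it and 12 changed sign. Most values that kept their side were uncalled in the fit without the block and stayed uncalled. Those that lost the threshold were all of EGR1 and ATF3 for Ni-E vs UT, the only members which that fit called. The cause of these changes was not tested.

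For H3K4me3, 2 members were past 1.5-fold after washout relative to UT and 4 relative to Ni-E. The counts were 9 and 9 without median scaling, 0 and 0 after quantile normalization, and 8 and 9 on the log2 ratio of (RPKM + 1). For Ni-E vs UT they were 0 in every alternative. With 2 RNA libraries per group and 1 ChIP library per condition, replicate error is poorly known for RNA and unknown for H3K4me3.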
